A study of Mus musculus with 18 samples.

Results

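The 7 genes described here, Dcx, Pak3, L1cam, Syp, Nlgn3, Gria3 and Fmr1, lie on the mouse X chromosome and are known in people as genes of X-linked intellectual disability or neuronal migration disorders. They were taken by name from the 46078 gene identifiers of each expression table, of which 45229 matched the mouse annotation and 2601 lay on the X chromosome. The 18 libraries came from female mice in 8 groups. Mutants carried a homozygous deletion of Xist, and controls carried a heterozygous deletion of it, so every animal carried at least 1 deleted Xist allele. Brain, spleen and liver were taken on postnatal day 1, with 2 control and 2 mutant libraries for each organ. Primary fibroblasts grown from tail tips were sequenced with 3 control and 3 mutant libraries, described by the submitters as biological replicates. The part of Xist that was deleted, the promoter of any Cre and the ancestry of the controls are named by no source used here.

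In female mammals 1 of the X chromosomes of each cell is silenced early in development. Xist, a long noncoding RNA, coats that chromosome and recruits the silencing machinery, so X-linked genes are normally expressed mainly from the other copy. The 7 genes act at successive steps of building a neuron. Dcx encodes doublecortin, a microtubule-binding protein of migrating newborn neurons. Pak3 encodes a kinase activated by the GTPases Rac1 and Cdc42 that shapes dendritic spines, and L1cam encodes an adhesion molecule of growing axons. Syp encodes synaptophysin of the synaptic vesicle membrane, Nlgn3 a neuroligin that binds presynaptic neurexins, and Gria3 a subunit of the AMPA glutamate receptor. Fmr1 encodes FMRP, an RNA-binding protein that represses translation at synapses and is lost in fragile X syndrome.

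Values are normalised read counts, called signal here, made by the submitters separately for each tissue. Each library held between 12356231 and 29154395 reads in genes, and 1 read was worth between 0.0343 and 0.0751 units of signal. Xist checked the labels. In brain it was at 666 and 683 in the controls and at 3.62 and 4.15 in the mutants, a log2 fold change of -7.27 (limma adjusted p = 1.5e-08). Xist also read lower in every mutant library than in any control of the same tissue elsewhere, without passing the limma threshold of 0.05 there (adjusted p = 0.136 in spleen, 0.454 in liver and 1 in fibroblasts). DESeq2 called it in all 3 of these. In spleen it was at 1205 and 1121 in the controls and at 117 and 51.2 in the mutants, a ratio of means of 0.0722, and in fibroblasts the ratio was 0.0866. In liver it was at 594 and 730 in the controls and still at 178 and 257 in the libraries labelled mutant, a ratio of 0.328. That level goes against the label as far as Xist reads can check it, since the deleted part of Xist is not known here, and every direction in liver is that of libraries labelled mutant. The spleen library of mutant 1 stood apart: it was the shallowest, and it held reads in 32381 genes against 25166 to 26940 in the other spleens.

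The genes are spread along the chromosome (GRCm38 coordinates, GENCODE gene bodies), except for Pak3 and Dcx. This pair lies close together and points towards each other, with Capn6 between them at chrX:143802231-143827414 on the minus strand. Pak3 lies at chrX:143518591-143797796 on the plus strand and Dcx at chrX:143855842-143933311 on the minus strand. Syp lies at chrX:7638471-7653256, Gria3 at chrX:41400854-41678601, Fmr1 at chrX:68678541-68717963 and Nlgn3 at chrX:101299168-101325963, all on the plus strand. L1cam lies at chrX:73853778-73896105 on the minus strand. The promoters of Pak3 and Dcx are shown because this pair lies close together and its brain estimates differed in size. The promoter of Fmr1 is shown because Fmr1 was the member expressed most evenly over the tissues. These promoters are RefSeq sequences (GRCm38.p6) read 5′ to 3′ on the gene's strand, and each ends at the base before the annotated gene start.
Pak3, chrX:143518341-143518590: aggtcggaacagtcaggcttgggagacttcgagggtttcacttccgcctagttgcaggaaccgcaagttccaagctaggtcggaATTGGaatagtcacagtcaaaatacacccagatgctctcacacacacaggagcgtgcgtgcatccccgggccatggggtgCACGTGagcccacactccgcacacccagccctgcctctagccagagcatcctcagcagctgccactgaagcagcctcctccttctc
Dcx, chrX:143933312-143933469: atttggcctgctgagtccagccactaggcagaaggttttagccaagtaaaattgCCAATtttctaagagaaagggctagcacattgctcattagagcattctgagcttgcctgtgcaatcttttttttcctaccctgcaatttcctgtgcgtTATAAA
Fmr1, chrX:68678291-68678540: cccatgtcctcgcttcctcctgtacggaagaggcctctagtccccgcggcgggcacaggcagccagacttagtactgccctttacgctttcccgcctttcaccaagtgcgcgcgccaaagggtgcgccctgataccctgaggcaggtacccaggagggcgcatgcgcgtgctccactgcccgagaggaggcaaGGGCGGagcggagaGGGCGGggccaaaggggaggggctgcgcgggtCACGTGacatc
Capitals mark matches, on either strand, to CACGTG (an E-box), GGGCGG (a GC box), CCAAT and TATAAA. No matches share letters. The Fmr1 window held 21 CG dinucleotides, the Pak3 window 10 and the shorter Dcx window of 158 bases 1. Fmr1 and Pak3 each held 1 CACGTG, which 6.02% of 32851 RefSeq promoter windows of the same length hold. The Fmr1 window also held GGGCGG 2 times, found in 32.7% of windows. The Pak3 window held 1 CCAAT match on the opposite strand, found in 33.8% of windows. The Dcx window held CCAAT, found in 21.2% of windows of its length, and TATAAA, found in 7.57%. Those windows were the first 158 of the 250 bases before each RefSeq start, so they leave out the bases next to that start. These matches are descriptions of letters, and no binding was measured.

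In control brain Syp, L1cam and Dcx had the highest RNA levels of the 7. Per kilobase of exon, Syp stood at 99.1 ± 9.33 units of signal, L1cam at 56.6 ± 3.95 and Dcx at 54.8 ± 8.77 (SD, n = 2). The levels of L1cam and Dcx did not differ beyond their spread. Pak3 followed at 32.8 ± 0.548 and Nlgn3 at 10.2 ± 0.514 per kilobase (SD, n = 2). Fmr1 at 6.99 ± 0.839 and Gria3 at 6.36 ± 1.16 per kilobase were lowest and did not differ beyond their spread (SD, n = 2). Dividing by the longest transcript in place of all exons kept the first 4 ranks and placed Nlgn3 last, at 11.1 per kilobase, below Fmr1 at 14.2 and Gria3 at 12.0.

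The tissues divided the genes into those read almost only in brain and those read more widely. Dcx averaged 716 ± 70.0 in brain (SD, n = 4) and reached no more than 2.10 in any other library. Syp averaged 573 ± 74.0 in brain and reached at most 2.25 elsewhere, and Nlgn3 averaged 104 ± 11.9 in brain and reached at most 2.00 elsewhere (SD, n = 4). Fmr1 was the most even, at 67.2 ± 6.77 in brain, 73.1 ± 7.61 in spleen and 36.0 ± 5.94 in liver (SD, n = 4), and 61.5 ± 17.5 in fibroblasts (SD, n = 6). Gria3, although named for its neuronal receptor subunit, was nearly as even outside liver: 63.4 ± 6.82 in brain, 52.8 ± 13.8 in spleen and 53.4 ± 23.4 in fibroblasts, against 7.20 ± 0.931 in liver. Pak3 was at 401 ± 102 in brain, 39.1 ± 8.59 in fibroblasts and under 4 elsewhere, with the highest reading at 3.61 in a spleen. L1cam was at 442 ± 44.2 in brain and 12.7 ± 3.79 in spleen, with 8.87 ± 6.89 in fibroblasts and 2.49 ± 0.727 in liver. Each tissue was normalised on its own, so levels set across tissues share that limit. The dot plot of every library shows Dcx, Syp and Nlgn3 at the bottom of the fibroblast panel.

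**Figure D1:**
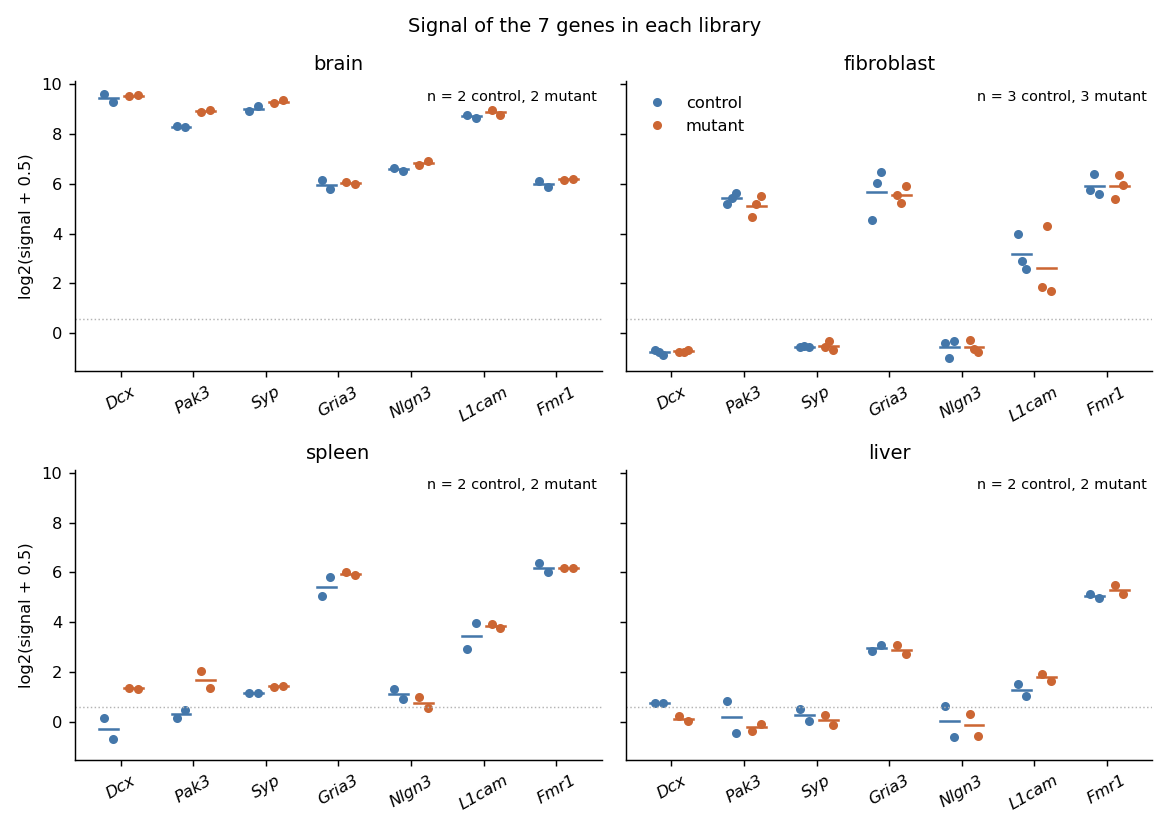
Signal of each gene in each library on the log2(signal + 0.5) scale, by tissue; dots are libraries, short bars are group means, and the dotted line marks a signal of 1. In brain the 2 mutant libraries lie above both controls for Pak3, Syp, Nlgn3 and Fmr1, while Dcx, Syp and Nlgn3 lie below the line in all 6 fibroblast libraries.

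In brain all 7 genes passed the filter of a mean signal of 1. Pak3 had the largest difference of the 7, about 1.56-fold higher in mutants. All 7 estimates were above 0, beside 74.1% of tested X-linked genes. In 4 genes, Pak3, Syp, Nlgn3 and Fmr1, both mutant libraries exceeded both controls, beside 41.8% of X-linked genes and 13.8% of all tested genes. None of the 7 passed limma's threshold, and DESeq2 called Pak3 alone among them, beside 3.77% of X-linked genes called as higher.

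Among the genes of migration and axon growth, Pak3 read 317 and 309 in the controls and 477 and 500.1 in the mutants. The groups were far apart compared with the spread inside each. The log2 fold change was 0.64 (SE 0.10), with a 95% interval from 0.42 to 0.86, that is 1.33-fold to 1.82-fold. It had the 12th smallest p of the 16909 genes tested, yet the limma adjusted p was 0.161 and that of edgeR's quasi-likelihood test 0.153, while DESeq2 gave 3.8e-05. Leaving out brain control 2 moved the limma adjusted p of Pak3 to 0.0309, in a fit with 1 control whose spread is taken from the mutants and from other genes. The estimate stayed between 0.61 and 0.67 whichever brain library was left out.

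Dcx, which lies close to Pak3, read 772 and 615 in the controls and 727 and 751 in the mutants. Both mutant values lay between the control values. Its log2 fold change was 0.10 (SE 0.13), with a 95% interval from -0.19 to 0.39 that does not reach the lower bound of Pak3 at 0.42. The sign of the Dcx estimate depended on 1 library, since it was -0.06 without control 2. L1cam read 437 and 396 in the controls and 502 and 433 in the mutants, so the groups overlapped. Its log2 fold change was 0.17 (SE 0.12; limma adjusted p = 1), with a 95% interval from -0.10 to 0.43.

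Among the synaptic genes, Syp read 482 and 551 in the controls and 604 and 655 in the mutants. Every mutant value was above every control value, although the gap between the groups was smaller than the gap between the controls. The log2 fold change was 0.29 (SE 0.11; limma adjusted p = 1), with a 95% interval from 0.03 to 0.54. Nlgn3 read 98.3 and 91.6 in the controls and 108 and 119 in the mutants. The groups again did not overlap, and the log2 fold change was 0.26 (SE 0.11; limma adjusted p = 1), with a 95% interval from 0.01 to 0.50. Gria3 read 70.8 and 54.6 in the controls and 65.8 and 62.3 in the mutants, with both mutants inside the control range. Its log2 fold change was 0.04 (SE 0.14; limma adjusted p = 1), and it was -0.14 without control 2.

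Fmr1, the translational regulator, read 68.0 and 57.4 in the controls and 71.5 and 71.8 in the mutants. The mutants were close together and just above the higher control. Its log2 fold change was 0.20 (SE 0.12; limma adjusted p = 1), with a 95% interval from -0.08 to 0.47. For Dcx, L1cam, Gria3 and Fmr1 the interval therefore holds both 0 and an increase of at least 1.29-fold (upper bounds 1.31, 1.34, 1.29 and 1.39).

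These positions were read against the rest of the X chromosome in brain, not only against 0. Across 610 tested X-linked genes other than Xist the median log2 fold change was 0.14, while the median of autosomal genes was -0.02. The median of the 7 was 0.20. Pak3 ranked 38th from the top of the 610, Syp 170th and Nlgn3 195th. Fmr1 ranked 250th, L1cam 286th, Dcx 345th and Gria3 404th, so the last pair lay below the X-linked median. Of all genes tested in brain limma called 0.0237%, a total of 4, and DESeq2 called 0.213% as higher in mutants. With 2 libraries a group an exact permutation test of a single gene cannot give a p under 0.333, so the calls rest on the spread shared across genes.

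**Figure D2:**
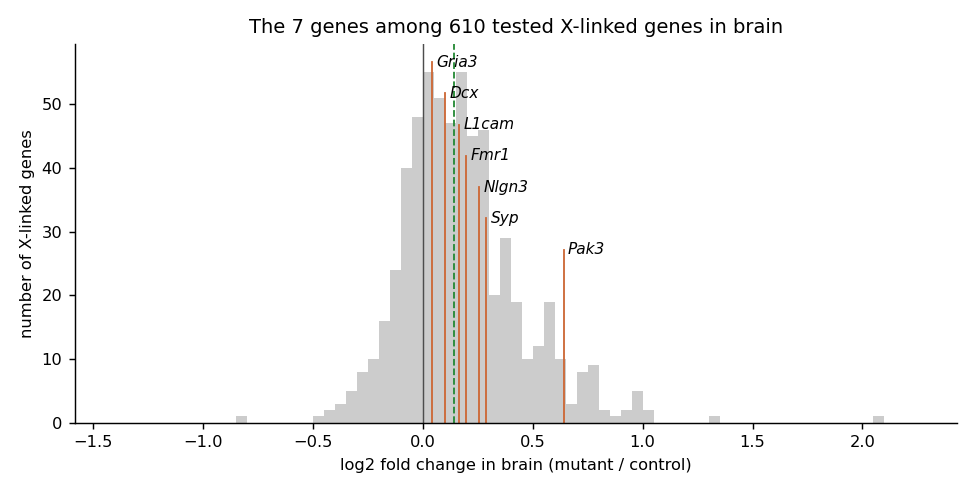
Histogram of the log2 fold change in brain (mutant over control) of the 610 tested X-linked genes other than Xist, with a vertical line for each of the 7 genes; the dashed line is the X-linked median at 0.14 and the solid line is 0. Pak3 at 0.64 stands in the upper tail, while Gria3 at 0.04 and Dcx at 0.10 lie below the median.

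The autosomal relatives and partners of these proteins show the same pathways without the X chromosome. Of 30 such genes 9 were above 0 in brain, beside 45.0% of all autosomal genes, and the median was -0.05. In 1 gene, Fxr2, a paralogue of Fmr1, both mutants exceeded both controls, at 118 ± 0.343 against 110 ± 7.49 in controls (SD, n = 2). In 6 genes both mutants lay below both controls, which 16.3% of all tested genes did: Nrxn2, Pak1, Synpr, Syngr1, Syngr3 and Vamp2. Limma, edgeR and DESeq2 called none of the 30, and 1 of them, Syngr3, had an unadjusted limma p under 0.05 (0.0383, lower in mutants). The 30 were listed with earlier results of these data known, so these counts are descriptions.

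By pathway, the kinases and GTPases around Pak3 were at log2 fold changes from -0.16 to -0.06, with none of 4 above 0. Pak1, the closest relative in neurons, read 171 and 157 in the controls and 157 and 157 in the mutants. Of the neurexins and neuroligins around Nlgn3 none of 5 was above 0, and the lowest was Nrxn3 at -0.12. The vesicle proteins around Syp ran from -0.31 in Syngr3 to 0.11 in Sypl, with 1 of 6 above 0. The AMPA receptor subunits beside Gria3 were at -0.05 for Gria2, 0.01 for Gria1 and 0.08 for Gria4, a range that includes Gria3. The doublecortin group ran from -0.09 in Tubb3 to 0.08 in Dclk1, and the L1 family with its anchor Ank2 from -0.01 to 0.06. The FMRP group ran from -0.08 in Cyfip2 to 0.11 in Fxr2. Each of the 7 estimates except that of Gria3 was above those of all its listed relatives, a description with no test of the difference.

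**Figure D3:**
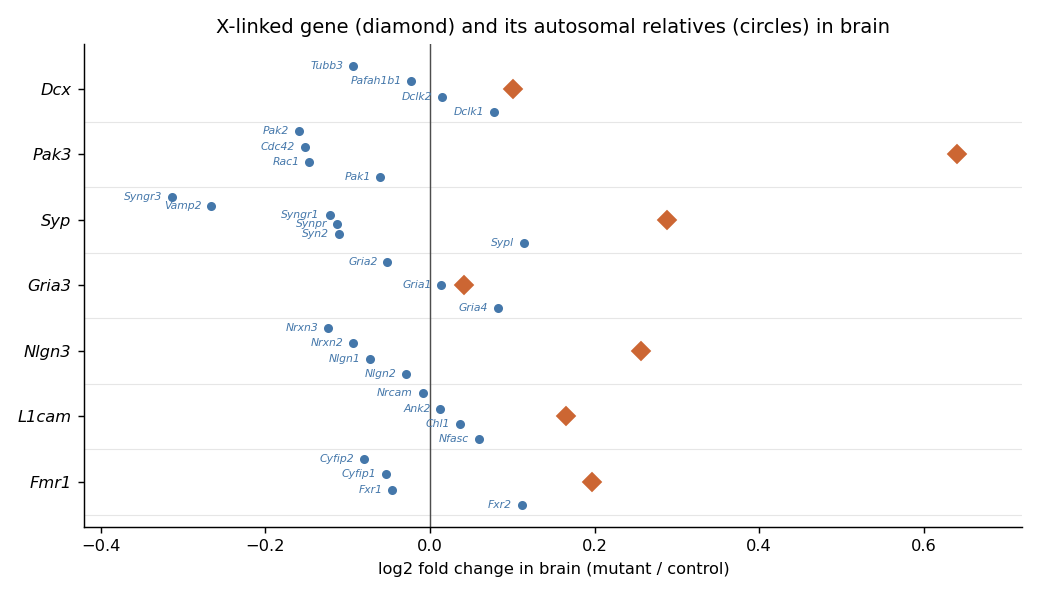
Log2 fold change in brain (mutant over control) of each of the 7 X-linked genes (diamonds) and of its autosomal relatives or partners (circles, labelled), 1 row for each X-linked gene; the vertical line is 0, and 1 of the 30 relatives is not drawn. The 7 diamonds lie right of 0, and most circles lie left of it.

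Other X-linked genes of intellectual disability and related brain disorders, 77 of them tested in brain, were mostly above 0. Of these 62 were above 0 (80.5%, beside 74.1% of X-linked genes), and in 47 both mutants exceeded both controls (61.0%, beside 41.8% of X-linked genes). In 6, among them Syn1, Gpr50, Brwd3 and Sox3, both mutants lay below both controls, as in 6.72% of X-linked genes. Their median log2 fold change was 0.19. Limma called none, 23 had an unadjusted p under 0.05 and all 23 were higher (19.0% of X-linked genes were), and DESeq2 called 5, all higher (3.77% of X-linked genes were). The list was drawn up with earlier results of these data known, so these shares are descriptions and support nothing about such genes.

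By role, the genes of ubiquitin, trafficking and metabolism were above 0 in 20 of 23, with a median of 0.25. The deubiquitinase Usp9x read 371 and 335 in the controls and 586 and 632 in the mutants (log2 fold change 0.79; limma adjusted p = 0.111, DESeq2 1.4e-07). Zdhhc9, a palmitoyltransferase, was at 0.59 (limma adjusted p = 0.437, DESeq2 0.0231). Among RNA and translation genes 10 of 11 were above 0, with a median of 0.19, and Thoc2, an mRNA export factor, was at 0.55 (limma adjusted p = 0.299, DESeq2 0.016). Chromatin genes were above 0 in 12 of 15, with a median of 0.18. Kdm5c, a histone demethylase that escapes X inactivation, was at 0.44 without a call. Cytoskeleton and migration genes were above 0 in 11 of 14, and Ocrl, a phosphoinositide phosphatase, was at 0.63 (limma adjusted p = 0.503, DESeq2 0.016). The genes of synapse, vesicle and receptor had the lowest median, 0.08, with 9 of 14 above 0, and their smallest p belonged to Iqsec2, a postsynaptic exchange factor, at 0.48 (limma adjusted p = 0.599). The difference between these classes was not tested.

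The surroundings of the members were examined after their values had been seen. Of 10 tested neighbours whose start lies within 1 Mb of that of Pak3, 8 were above 0 in brain, beside 74.1% of X-linked genes. The median of the 10 was 0.43, beside 0.14 for X-linked genes. Tmem164 read 55.0 and 58.3 in the controls and 93.1 and 91.6 in the mutants (log2 fold change 0.70; limma adjusted p = 0.161, DESeq2 6.0e-04). Capn6 was at 0.98 (SE 0.33) at low signal, Rtl9 at 0.60 and Alg13 at 0.44, none of them called. In the same window Dcx stood at 0.10, Chrdl1 at -0.09 and Trpc5, an ion channel of neurons, at -0.26. Gria3 showed the opposite contrast, since its 3 tested neighbours Thoc2, Stag2 and Xiap were at 0.55, 0.35 and 0.30 while Gria3 itself was at 0.04. The neighbours of Syp had a median of 0.20 with 26 of 31 above 0, those of Nlgn3 0.23 with 19 of 23, and those of L1cam 0.07 with 31 of 43. As 74.1% of X-linked genes were above 0, nothing is read from these counts. The 2 tested neighbours of Fmr1 were at -0.29 and 0.00.

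**Figure D4:**
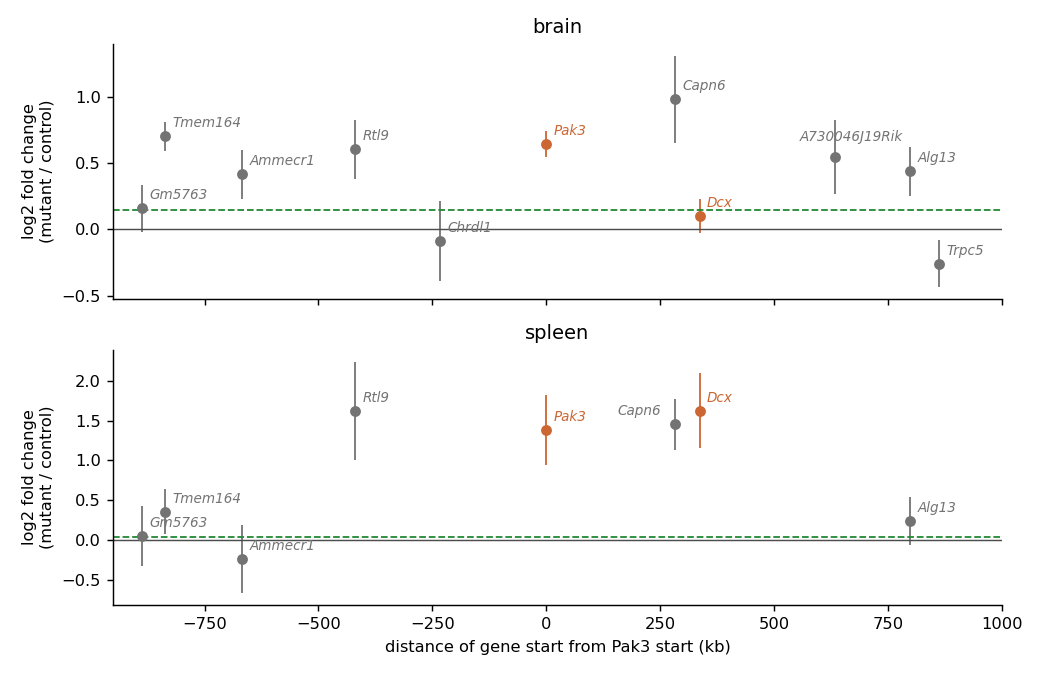
Log2 fold change (mutant over control, with its standard error) of tested genes within 1 Mb of the start of Pak3, in brain and spleen, by distance of the gene starts in kilobases; the dashed line is the median of X-linked genes. In brain Pak3 at 0.64 stands near Tmem164 and Rtl9 with Dcx at 0.10 below them, and in spleen Rtl9, Pak3, Capn6 and Dcx stand between 1.38 and 1.63. Of these, Rtl9, Pak3 and Dcx passed the filter in spleen only through the mutants.

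Bulk RNA cannot tell fewer cells of a type from less RNA for each cell, so markers of the cell types in brain were read beside these results. None of 8 neuron markers was above 0, beside 45.0% of autosomal genes. In 4 of the 8, Rbfox3, Syt1, Stmn2 and Gap43, both mutants lay below both controls, beside 16.3% of all tested genes. Limma called none of the 8. The summed signal of the 8 was 5746 to 6451 in controls and 5729 to 5801 in mutants. The newborn neuron markers summed to 1687 to 2590 in controls and 1940 to 2030 in mutants. Control 1, the highest library for Dcx, was also the highest for 6 of these 8 markers, among them Sox11 at 1171 beside 693 in control 2. For Neurod1 and Nhlh1 it was the lowest, at 28.2 and 2.02 beside 42.2 and 8.32 in control 2. All 5 markers of the choroid plexus were above 0, with sums of 143 to 792 in controls and 665 to 1032 in mutants, overlapping, and Ttr at 132 in control 1. The part of these markers in the members' values was not tested.

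Reads of overlapping genes cannot be assigned with certainty, because no source used here says whether counting kept the strands apart. L1cam overlaps Arhgap4, at a mean signal of 8.08 in brain, and Avpr2, at 0. Nlgn3 overlaps Gm21986, at 1.05, and Syp overlaps the antisense gene Gm14703, at 0.238. All are small beside the brain signal of the members they overlap.

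In fibroblasts 4 of the 7 genes passed the filter, and none of the 4 was above 0, beside 60.2% of X-linked genes. Dcx, Nlgn3 and Syp had no more than 7 reads in any fibroblast library. Pak3 read 36.4, 42.9 and 49.6 in the controls and 25.1, 36.0 and 44.8 in the mutants. The groups overlapped, and the log2 fold change was -0.31 (SE 0.24; limma adjusted p = 1). Fmr1 read 54.1, 84.1 and 47.1 in the controls and 41.7, 80.6 and 61.2 in the mutants, with a log2 fold change of -0.02 (SE 0.31; limma adjusted p = 1). Gria3 read 22.6, 65.0 and 89.5 in the controls and 46.0, 37.2 and 60.4 in the mutants, a log2 fold change of -0.12 (SE 0.51). The controls alone spanned a wider range than both groups' means.

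Of the 4 members tested in fibroblasts L1cam had the largest standard error, at 15.3, 7.03 and 5.56 in the controls and 3.16, 19.4 and 2.74 in the mutants. Mutant 2 was the highest library of the 6 and the other mutants were the lowest. Its log2 fold change was -0.54 with a 95% interval from -2.38 to 1.30. Limma called no gene in fibroblasts (0.00% of 13077), with 127 at an unadjusted p under 0.05; edgeR called 0 and DESeq2 3. Leaving out 1 library at a time gave up to 2 of the 4 above 0: Fmr1 and Gria3 both without control 2, Fmr1 without mutant 1, and Gria3 without control 3 or mutant 2. Of the X-linked neurodevelopmental list 46 of 70 tested were above 0 in fibroblasts. Its largest differences by p were Zdhhc9, at 61.2 in controls and 89.4 in mutants (log2 fold change 0.54; limma adjusted p = 1), and Usp9x, at 299 and 371.

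In spleen the estimates of Dcx and Pak3 were the largest among the tested members of the 4 tissues, at very low signal. Both passed the filter only through the mutants, since their control means of 0.37 and 0.757 were under 1, so these estimates are descriptions and support nothing. Dcx read 0.620 and 0.119 in the controls and 2.10 and 2.04 in the mutants, from 9, 2, 28 and 38 reads. Pak3 read 0.620 and 0.895 in the controls and 3.61 and 2.09 in the mutants, from 9, 15, 48 and 39 reads. Neither gene's groups overlapped. On the log2(signal + 0.5) scale, which understates changes at low signal, the difference was 1.63 (SE 0.47) for Dcx and 1.38 (SE 0.44) for Pak3. Neither was called by limma, edgeR or DESeq2. Without the deviating library of mutant 1 the estimates were 1.61 for Dcx and 1.05 for Pak3.

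Among the other genes in spleen, Gria3 read 32.7 and 55.9 in the controls and 63.7 and 58.9 in the mutants, a log2 fold change of 0.51 (SE 0.33; limma adjusted p = 0.779). Syp read 1.72 and 1.73 in the controls and 2.18 and 2.25 in the mutants, a log2 fold change of 0.29. L1cam read 7.17 and 15.4 in the controls and 14.9 and 13.3 in the mutants, and its estimate of 0.40 became -0.12 without control 1. The L1cam groups overlapped, whereas those of Gria3 and Syp did not. Fmr1 read 82.7 and 64.1 in the controls and 72.9 and 72.7 in the mutants, a log2 fold change of 0.00 (SE 0.27). Nlgn3 read 2.00 and 1.37 in the controls and 1.50 and 0.965 in the mutants, a log2 fold change of -0.34 (SE 0.43). Both mutants thus exceeded both controls in Dcx, Pak3, Gria3 and Syp, as in 25.4% of X-linked and 18.3% of all tested genes, and because of the filter nothing is read from that count.

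Markers of other cells also differed in level between the spleen groups, although limma called none of them. All 5 endothelial markers were higher in both mutants, with sums of 499 to 691 in controls and 775 to 1061 in mutants. So were all 5 markers of meninges and fibroblasts (1325 to 1756 and 1942 to 3108). Both mutants exceeded both controls in 18.3% of all genes tested in spleen. None of 5 erythroid markers was above 0 (8069 to 17221 in controls and 5748 to 8551 in mutants). The 4 neuron markers that passed the filter, Rbfox3, Map2, Stmn2 and Gap43, were above 0 (whole list 11.9 to 15.0 in controls and 21.5 to 35.1 in mutants). Snap25, Syt1, Elavl3 and Elavl4 of the same list averaged below 1. The part of the cell makeup in the values of Dcx, Pak3, Gria3 and Syp was not tested. The neighbours Rtl9 and Capn6 of Pak3 were also higher in both mutant spleens, at 1.62 and 1.45, and DESeq2 called Capn6 (adjusted p = 0.023). Rtl9 had a control mean of 0.287, from 4 and 5 reads, beside 51 and 16 reads in the mutants. It too passed the filter only through the mutants, so its estimate supports nothing. In fibroblasts the 5 tested neighbours of Pak3 were above 0, beside 60.2% of X-linked genes, while Pak3 was at -0.31. The groups overlapped for Ammecr1, Chrdl1, Capn6 and Alg13. The mutants read 2.69, 41.0 and 3.65 for Capn6, so that estimate rested on mutant 2. Tmem164 read 55.1, 52.9 and 50.5 in the controls and 107, 121 and 76.1 in the mutants, without overlap (log2 fold change 0.91; limma adjusted p = 1, DESeq2 0.0911). Limma and edgeR called no gene in spleen (0.00% of 16578; 1039 by limma at an unadjusted p under 0.05), and DESeq2 called 182.

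In the X-linked neurodevelopmental list 39 of 70 tested genes were above 0 in spleen. The median of the list was 0.05, beside 0.03 for tested X-linked genes other than Xist. Chromatin genes were above 0 in 2 of 14, with Hcfc1, a transcriptional coregulator, at 558 in controls and 360 in mutants (log2 fold change -0.62; limma adjusted p = 0.779). Migration genes were above 0 in 11 of 13, with Shroom4, an actin regulator, at 14.8 and 27.0 (0.81; limma adjusted p = 0.779). The difference between these classes was not tested, and nothing is read from these counts.

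In liver, where the libraries labelled mutant kept Xist at 0.328 of the control mean, 3 of the 7 genes passed the filter and 2 of them were above 0, beside 65.4% of X-linked genes. Fmr1 read 34.2 and 30.7 in the controls and 44.5 and 34.4 in the libraries labelled mutant, a log2 fold change of 0.27 (SE 0.23; limma adjusted p = 0.89). The groups did not overlap by a margin smaller than the gap between the controls. L1cam read 2.42 and 1.57 in the controls and 3.33 and 2.64 in the mutants, a log2 fold change of 0.50 (SE 0.31; limma adjusted p = 0.843), also without overlap. Gria3 read 6.74 and 8.0 in the controls and 7.95 and 6.11 in the mutants, overlapping, with a log2 fold change of -0.07. Both mutants exceeded both controls in 30.6% of X-linked and 23.5% of all tested genes in liver, beside 2 of the 3 that passed the filter. Of the genes below the filter, Dcx read 1.21 in each control and 0.666 and 0.515 in the mutants, from 19, 30, 14 and 15 reads. Dcx was not tested in liver and passed the spleen filter only through the mutants, so its directions in these tissues are not compared. Pak3, Nlgn3 and Syp had at most 20 reads in any liver and overlapping groups.

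Limma and edgeR called no gene in liver (0.00% of 15075; 1006 by limma at an unadjusted p under 0.05), and DESeq2 called 211. Of the X-linked neurodevelopmental list 51 of 66 tested were above 0 in liver, with a median of 0.20. Usp9x read 161 and 163 in the controls and 263 and 276 in the mutants (log2 fold change 0.73; limma adjusted p = 0.675).

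Whether a gene's response differed between tissues was tested by exact permutation of the labels within tissues, two-sided, in the 24 pairs where the gene passed the filter in both. The smallest p belonged to Pak3 in 2 pairs. Its estimate was higher in brain than in fibroblasts by 0.95 (p = 0.0667, adjusted p = 0.8, exact permutation). It was lower in fibroblasts than in spleen, a difference of -1.69 (p = 0.0667, adjusted p = 0.8, exact permutation), where Pak3 was tested only because of its mutant signal. Larger differences than the first of these were seen for Dcx between brain and spleen (-1.52) and L1cam between fibroblasts and liver (-1.04). Both had a higher p. Dcx, like Pak3, was tested in spleen only because of its mutant signal, so nothing is read from their pairs with spleen. Pairs of organs could not give a p under 0.0556 and pairs with fibroblasts none under 0.0167. None of the 24 passed the threshold. The plot of estimates by tissue shows intervals that are narrowest in brain.

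**Figure D5:**
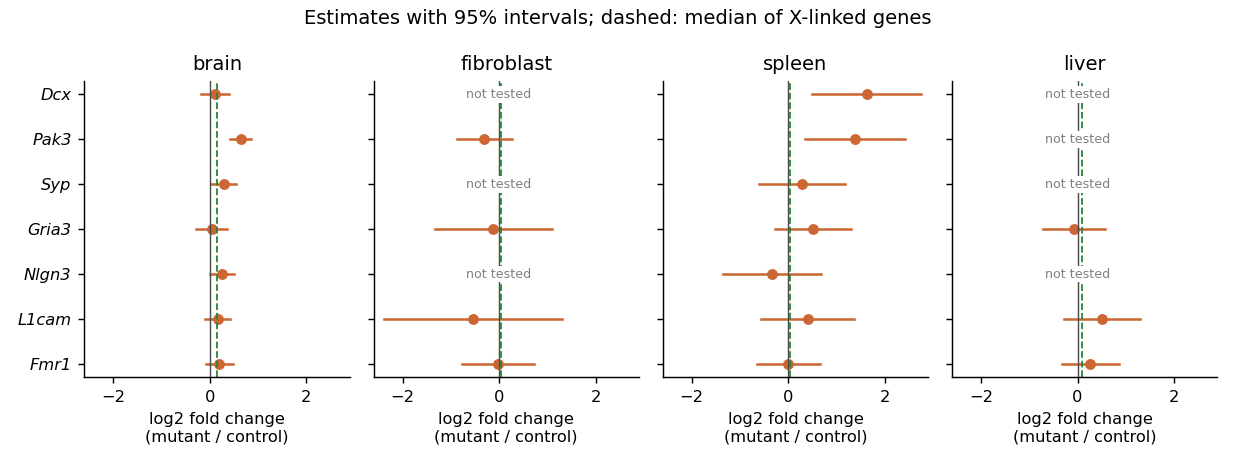
Log2 fold change (mutant over control) of each gene with its 95% interval from limma, 1 panel for each tissue; the dashed line is the median of tested X-linked genes, and genes below the filter are written as not tested. In brain the Pak3 interval from 0.42 to 0.86 lies right of the dashed line, and in fibroblasts the 4 point estimates lie at or left of 0.

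Last, the genes with the most similar profile were listed for each member by Pearson's r of log2(signal + 0.5) over the 18 libraries, among 16908 genes. The libraries share tissue and normalisation, so r mostly follows the tissues, and it is given as a description. Closest to Dcx was Erbb4, a neuregulin receptor (r = 0.9962), then Ranbp3l and Unc80. Closest to Syp was Sh3gl2, an endophilin of synaptic vesicle recycling (r = 0.9982), then Caskin1 and Rundc3a. Nlgn3 was closest to Gm37180 (r = 0.9955), Syp (r = 0.9944) and Chrnb2, a nicotinic receptor subunit, while the 3 closest to Syp did not include Nlgn3. Pak3 was closest to Gm16702 and to Cacng7, an auxiliary subunit of AMPA receptors (r = 0.9884 for both), then Adgrl3. L1cam was closest to Zfp184 (r = 0.9856), Armc2 and the X-linked Tro. Gria3 was closest to Klhl20, a ubiquitin ligase adaptor (r = 0.9636), Sipa1l1 and Cacna1g. Fmr1 had the weakest best match, Gtf3c5, a subunit of the RNA polymerase III factor TFIIIC (r = 0.8990), then Zc3hc1 and Mbip.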

How the data were processed

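Total RNA from 18 libraries was extracted with Trizol, depleted of ribosomal RNA and sequenced as 50 nt reads, per the labels' protocols. The deposited values are signal: read counts for each gene that the authors normalised within each of 4 tables, 1 for each tissue. HTSeq 0.6.1, edgeR and GRCm38 are named in the submitters' processing notes; no source used here names an aligner, annotation or strand setting. The tables' headers call the controls WT and the labels call them Xist heterozygous deletions, and the design text names heart where labels and files hold brain; the labels were followed. Identifiers were matched to GENCODE genes on GRCm38, and unmatched ones held under 1% of reads.

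Each table was fitted alone with limma 3.58.1 (R 4.3.3, trend) on log2(signal + 0.5) for genes with a mean signal of at least 1, with Benjamini-Hochberg adjustment over all genes tested and a threshold of 0.05; folds are on that scale unless given as a ratio of means. Values were whole multiples of 1 read in 100% of cases (tolerance 0.05 reads), so DESeq2 1.42.0 and edgeR 4.0.16 (quasi-likelihood, TMM) were run on the recovered reads: DESeq2 called 41 genes in brain, 3 in fibroblasts, 182 in spleen and 211 in liver, and edgeR 4, 0, 0 and 0. The fits were tested on simulated data. Replicates within groups differed by more than sampling noise. The members and the lists of relatives, X-linked disease genes and cell markers were chosen with earlier results of these data known. Named genes were the members, Xist, all autosomal relatives, in each role class of the X-linked list up to 4 genes with the smallest limma p in brain and up to 2 in each other tissue, and the 3 nearest profiles of each member; neighbours and markers were chosen for mention after their values were seen. Some genes that the rule names are not reported here, though list counts include them. Of 78 X-linked disease genes 77 were in the tables. RefSeq promoters were found for 5 of the 7 members. Alternatives were the pseudocount (0.1, 1), the filter (none, 5), scaling, count models, a replicate block and leaving out each library.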

Additional observations from a re-analysis of the deposited data

How the results depend on the processing

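The number of genes past the threshold depended on the method more than the members did. In brain the 4 calls became 13 without a filter, 41 with DESeq2 and 6 to 112 when 1 library was left out; fibroblasts went from 0 to 3 with DESeq2, and stayed at 0 without any 1 library. In spleen the 0 calls became 22 without a filter, 182 with DESeq2 and 0 to 173 when 1 library was left out (170 without mutant 1, 173 without mutant 2), and in liver 11 without a filter and 211 with DESeq2. The labels number replicates in each group, but do not say what a number shares across groups, so the numbers were not taken to pair the samples (correlation of deviations 0.0783 in brain, -0.0257 in spleen, 0.585 in liver and -0.080, 0.432 and 0.0231 in fibroblasts). With the replicate number as a block the calls were 4 in brain, 0 in fibroblasts, 356 in spleen and 60 in liver, and no member passed the threshold; the adjusted p of Pak3 in brain was 0.242. Of 7 members above 0 in brain, 5 to 7 remained above 0 with 1 library left out; in fibroblasts it was 0 to 2 of 4, with 2 without control 2. A minimum mean of 5 left 3 members in spleen, 3 of them above 0, and 2 in liver, 1 above 0. Direction reversed only when a library was left out: in brain for Dcx (-0.0626 to 0.26 over the omissions of 1 library) and Gria3 (-0.14 to 0.23), both without control 2, in fibroblasts for Fmr1 (-0.24 to 0.23; 0.22 without control 2, 0.23 without mutant 1) and Gria3 (-0.69 to 0.29; 0.06, 0.29 and 0.05 without control 2, control 3 or mutant 2), in spleen for L1cam (-0.12, without control 1, to 0.93) and Fmr1 (-0.18, without control 2, to 0.18; -0.0017 without mutant 1), and in liver for Gria3 (-0.25 to 0.11; 0.04 without control 2, 0.11 without mutant 2). The causes were not tested. Over the other settings the estimate for Pak3 in brain lay between 0.64 and 0.67, and DESeq2 was the 1 of them under which a member was called. Depth limits Dcx, Nlgn3 and Syp outside brain, where a count of 0 in a library still allows a signal of up to 0.103 to 0.225; such limits cover counting error only.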
